A study of Komagataella phaffii with 102 samples.

Results

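The genes described here are neighbours that point away from each other from a short shared stretch of DNA. In the annotation of the Y-11430 assembly, such a head-to-head pair has its left gene on the minus strand and its right gene on the plus strand. Genes of the 4 chromosomes were sorted by start, and pairs were kept where the right gene started 1 to 500 bp after the end of the left gene and both genes were listed in the expression tables. This gave 1077 pairs of 5141 neighbouring pairs, with 335, 264, 268 and 210 pairs on chromosomes 1, 2, 3 and 4. They hold 2154 genes, or 42.1% of the 5116 listed genes. Of the 1464 head-to-head neighbours in all, 302 lay over 500 bp apart, 76 overlapped and 9 had a gene without values, including 2 within 500 bp. This rule used no expression values, though it was set with earlier results of these data known. The classes set against them were 618 tail-to-tail neighbours (3′ ends facing) and 1765 same-strand neighbours, both also 1 to 500 bp apart, and the 302 head-to-head pairs over 500 bp apart.

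In budding yeasts, genes lie close together, and the upstream region of a gene is often also that of its neighbour on the other strand. A promoter usually holds a nucleosome-depleted region where the transcription machinery assembles, and this region can start transcription in both directions. In Saccharomyces cerevisiae, GAL1 and GAL10 of galactose use and several histone gene pairs are transcribed from such shared regions, and the partners are switched on together. In other pairs the partners have separate control elements and are read independently. Promoters of this kind are also used as tools to express a pair of genes from one stretch of DNA. Methanol induces the genes of methanol use in this yeast strongly, and glycerol represses many of them, so a change of carbon source moves many promoters at once.

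RNA-seq of 102 libraries covered 11 strains of the yeast Komagataella phaffii, which can grow on methanol and serves as a host for making proteins, and the aim was to compare such hosts. Cultures grew in 24-well plates in complex medium and were sampled in methanol (24 h of glycerol, then 24 h in methanol; 38 libraries), at 48 h glycerol (24 h of glycerol, then 24 h in fresh glycerol medium; 28 libraries) and at 24 h glycerol (36 libraries). No strain here carried a transgene. Cluster 2 comprises YB-4290, Y-7556, YB-378 and YB-4289, and the reference strains are Y-12729, Y-48123 and Y-48124. The others are Y-17741, Y-11430, GS115 and X-33. Y-11430 is the strain of the assembly, GS115 is a histidine auxotroph obtained from it by mutagenesis, and X-33 and Y-48124 descend from GS115. Y-7556 and YB-4290 have identical genomes by the study's account. Cluster 2 was formed by the study from expression in these same libraries. YB-378, YB-4289 and Y-17741 are farther from the assembly in sequence than the other strains, which can lower the mapping of their reads. Each group is a strain in 1 condition and held 1 to 7 libraries, and Y-48123 at 48 h glycerol was the group with 1. The labels do not say that replicates came from separate cultures, so p-values measure the spread between these libraries.

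The median library held 3810597 counts (range 70901 to 16336681), and 6 libraries had fewer than 1000000. X-33 methanol replicate C had the 70901 counts and correlated with the rest of its group at 0.65 across genes. Y-12729 methanol replicate B and Y-48123 methanol replicate C followed, at 0.82 and 0.87. Levels are given as TPM (transcripts per 1000000, which allows for gene length), rescaled so that the listed genes of a library sum to 1000000, since 5.36% to 46.2% of the deposited TPM lay outside the listed genes. In bulk cultures, a change in the share of cells that express a gene and a change in each cell cannot be told apart.

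The gaps of the 1077 pairs ran from 3 to 498 bp with a median of 177 bp, close to the 161 bp of same-strand pairs and longer than the 45 bp of tail-to-tail pairs. Bounds in the annotation are of mixed kind, since 47.6% of head-to-head genes had an annotated untranslated region and the others ended at the coding sequence. The distance between the start codons of the partners could be read for 1044 pairs, with a median of 284 bp and a range of 5 to 2133 bp. An annotated 5′ leader was present for both genes in 205 pairs, for a single gene in 546 and for neither in 293. The 971 leaders had a median of 70 bp. Head-to-head genes had a median exon length of 1344 bp, against 1413 bp for the other 2955 listed genes of the chromosomes, and 6.17% of them had more than 1 exon, against 3.55% of the others. Their median level over the 33 strain-and-condition means was 5.43 on the log2(TPM + 1) scale, against 5.82 for the others.

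Partners of head-to-head pairs were closer in level than partners of the other classes, though far from equal. The median difference between partners was 1.33 log2 units in head-to-head pairs, against 1.79 in tail-to-tail, 1.60 in same-strand and 2.05 in head-to-head pairs over 500 bp apart. Levels of partners correlated across pairs at an intraclass r (which takes partners in either order) of 0.13 in head-to-head pairs, against 0.07, 0.01 and 0.08 in the other classes in the same order. The value was 0.16 in methanol, 0.12 at 48 h glycerol and 0.14 at 24 h glycerol. The partners differed by over 3 log2 units in 187 head-to-head pairs (17.4%). The same partner was the stronger in every one of the 33 means in 468 pairs (43.5%), and in 242 pairs (22.5%) each partner was at least 2-fold the stronger somewhere. These values describe the pairs and were not tested.

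Co-expression was then measured as Pearson's r between the log2(TPM + 1) levels of the partners over the 33 strain-and-condition means, as a description of each pair. The median r of head-to-head pairs was 0.29, with quartiles of -0.08 and 0.59. It was 0.08 in tail-to-tail, 0.22 in same-strand and 0.21 in head-to-head pairs over 500 bp apart. Genes 10 and 100 places apart on a chromosome had medians of 0.08 and 0.04, so tail-to-tail partners were about as alike as genes that are not neighbours. An r over 0.7 was found in 166 head-to-head pairs (15.4%), against 7.28% of tail-to-tail, 13.1% of same-strand and 15.6% of wider head-to-head pairs. The shift was clearer at the low end, where 28.8% of head-to-head pairs had a negative r, against 43.9%, 34.6% and 35.8%. The points of each r share libraries and strains, so the r of single pairs carries no p-value.

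**Figure D1:**
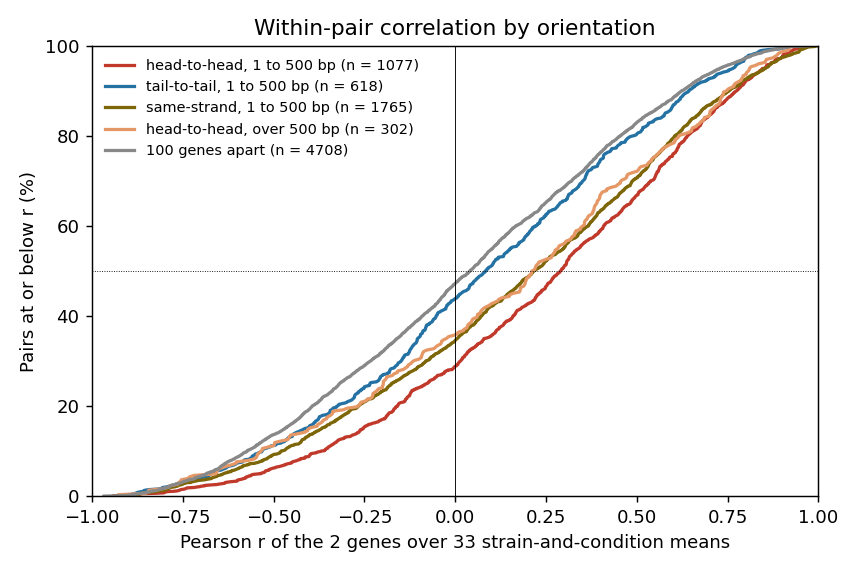
Percent of pairs (vertical axis) at or below each Pearson r of the partners over 33 strain-and-condition means (horizontal axis), for head-to-head, tail-to-tail and same-strand neighbours 1 to 500 bp apart, head-to-head neighbours over 500 bp apart and genes 100 places apart. The head-to-head curve lies to the right of the others through most of the range, with its median at 0.29, and the tail-to-tail curve, with a median of 0.08, runs near that of genes 100 places apart.

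Head-to-head pairs kept the highest and tail-to-tail pairs the lowest median without the difference between conditions, and the order of the same-strand and wider head-to-head pairs changed. With each condition's mean removed, the median r was 0.30 in head-to-head, 0.15 in tail-to-tail, 0.21 in same-strand and 0.22 in wider head-to-head pairs. Between libraries of a single strain and condition the medians were 0.29, 0.15, 0.19 and 0.20. Genes 10 and 100 places apart had medians of 0.11 and 0.08 with condition means removed, and 0.13 and 0.11 between libraries of a group. Over the 11 strain means of 1 condition, head-to-head medians were 0.33 in methanol, 0.30 at 48 h glycerol and 0.29 at 24 h glycerol. In the same order, tail-to-tail medians were 0.17, 0.16 and 0.09 and same-strand medians 0.27, 0.21 and 0.18. Those of wider head-to-head pairs were 0.26, 0.24 and 0.18. The level of r depended on the scaling. It was 0.39 for head-to-head pairs with the deposited TPM and 0.23 with TMM-scaled log2 CPM. The medians were 0.18 and 0.02 for tail-to-tail, 0.31 and 0.17 for same-strand and 0.28 and 0.20 for wider head-to-head pairs. Head-to-head pairs had the highest median of the 4 classes under both scalings.

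Within 500 bp, the median r over the means showed no steady trend with the width of the gap. The median r of head-to-head pairs was 0.29 at 1 to 100 bp (190 pairs), 0.30 at 101 to 200 bp (414), 0.27 at 201 to 300 bp (212), 0.32 at 301 to 400 bp (180) and 0.16 at 401 to 500 bp (81). With condition means removed the medians were 0.32, 0.32, 0.27, 0.29 and 0.24 in the same order, so 401 to 500 bp was again the lowest. Between libraries of a group the value at 401 to 500 bp was 0.32, against 0.26 to 0.34 at the shorter gaps, and no drop was seen. At 501 to 1000 bp the median was 0.27, and beyond 1000 bp it was 0.16. The 76 overlapping head-to-head pairs, which were not members, had 0.45. Whether the counting used the strand is not stated, and without strand the reads of overlapping genes cannot be told apart.

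**Figure D2:**
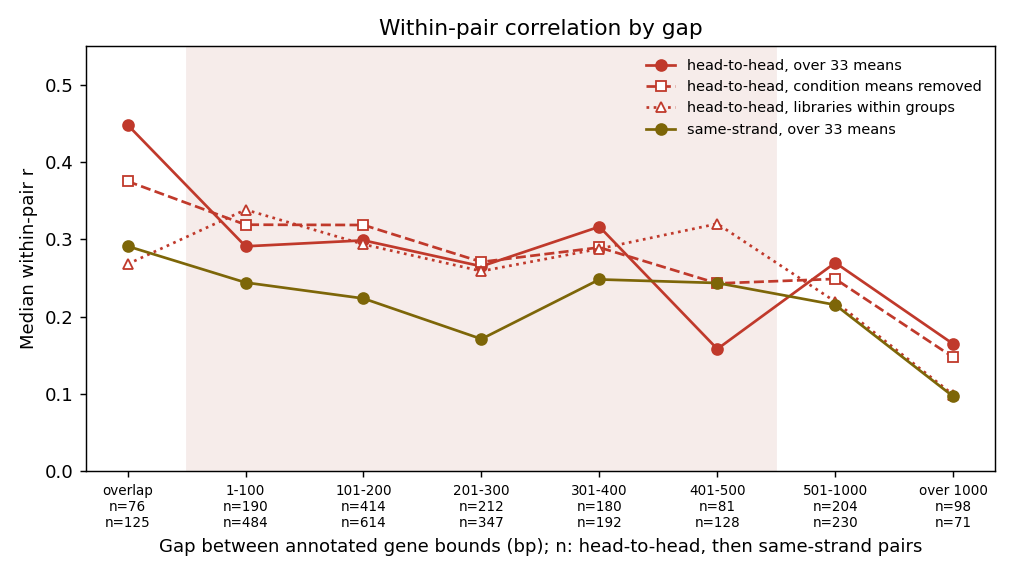
Median within-pair r (vertical axis) by the gap between the annotated bounds (horizontal axis, bp), for head-to-head pairs over the 33 means, with condition means removed and between libraries within groups, and for same-strand pairs over the 33 means. The shaded gaps of 1 to 500 bp are those of the members, where the head-to-head medians over the means lie between 0.16 and 0.32 without a steady trend.

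The median r also varied with other properties of the pairs. Pairs with an annotated 5′ leader on both genes had a median r of 0.23, those with a leader on a single gene 0.32 and those with none 0.26. By the level of the weaker partner, the medians were 0.22 below 3 log2 units (95 pairs) and 0.31 from 3 to 5. They were 0.26 from 5 to 7 and 0.33 from 7 up (54 pairs). In each of these bins the tail-to-tail median was lower, between 0.00 and 0.14. Same-strand medians were also lower but nearer, at 0.14, 0.24, 0.20 and 0.27 in the same order. The same genes also offer a comparison on their other side. The 2153 head-to-head genes with a listed downstream neighbour had a median r of 0.29 with the head-to-head partner and 0.14 with the downstream neighbour, and r was higher with the partner for 1241 genes (57.6%). Where the downstream neighbour lay tail-to-tail the share was 60.8% of 1241 genes, and where it lay on the same strand it was 53.3% of 912 genes. Gaps to downstream neighbours were of any size, overlaps included, and this comparison was not tested.

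Whether partners respond together to a change of condition was tested over strains. In each strain, the response of a gene was the difference of its mean log2(TPM + 1) between 2 conditions, and co-response was the intraclass r of the partners' responses across pairs. For methanol against 48 h glycerol, head-to-head co-response averaged 0.23 ± 0.03 (SD, n = 11 strains) over 1061 pairs, with strains between 0.20 (Y-48124) and 0.30 (Y-17741). The tail-to-tail average was 0.01 ± 0.02, the same-strand average 0.15 ± 0.04 and the average of wider head-to-head pairs 0.14 ± 0.04. Head-to-head co-response was higher by 0.22 than tail-to-tail, by 0.08 than same-strand and by 0.09 than wider head-to-head co-response, in 11 of 11 strains each. For 48 h against 24 h glycerol, head-to-head co-response averaged 0.20 ± 0.02, against 0.04 ± 0.02, 0.12 ± 0.02 and 0.14 ± 0.05 in the other classes. The differences were 0.16 and 0.08 to tail-to-tail and same-strand pairs, in 11 of 11 strains, and 0.06 to wider head-to-head pairs, in 9 of 11 strains.

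An exact two-sided sign-flip permutation test over the 11 strains gave p = 0.000977 for each of the 5 differences seen in all strains, which is the smallest p it can give, and p = 0.0166 for the remaining one. Adjusted over the 6 tests, the values were 0.00117 and 0.0166. The last difference fell to 0.01 (adjusted p = 0.627, exact sign-flip test) when 300 bp, not 500 bp, divided close from wide head-to-head pairs. It was 0.11 when 1000 bp divided them, and for methanol the same 2 limits gave 0.05 and 0.13 in place of 0.09. With Spearman correlation, the methanol difference to same-strand pairs was 0.04 in place of 0.08 (adjusted p = 0.0146, exact sign-flip test). All strains carry the same pairs and several are related by descent, so the test shows only that the difference recurred from strain to strain and says nothing of other genes.

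**Figure D3:**
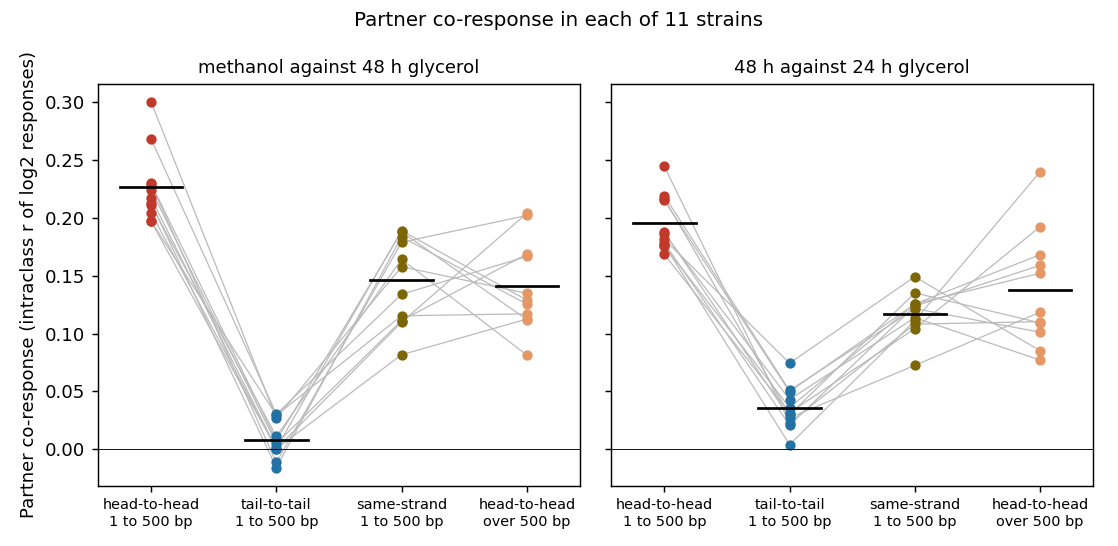
Partner co-response, the intraclass r of log2 responses across pairs (vertical axis), by class of neighbour (horizontal axis) for methanol against 48 h glycerol (left) and 48 h against 24 h glycerol (right). Points are the 11 strains, grey lines join the classes of a strain and black bars are means. The head-to-head points lie between 0.17 and 0.30, above the tail-to-tail points in every strain of both panels.

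Among the 489 head-to-head pairs in which both genes had a mean of at least 3 and an SD of at least 0.5 log2 units, the 4 highest correlations were 0.98, 0.97, 0.96 and 0.96. The highest was that of GQ67_01660 and GQ67_01659 (chromosome 1, minus strand from 2298845 to 2299370 and plus strand from 2299614 to 2300134, gap 244 bp). GQ67_01660 had 7.33, 105 and 444 TPM in methanol, 130.4, 233 and 839 TPM at 48 h glycerol and 454, 1829 and 2402 TPM at 24 h glycerol (lowest, median and highest library). GQ67_01659 had 51.6, 566 and 1051 TPM in methanol, 231, 592 and 1833 TPM at 48 h glycerol and 920.1, 3597 and 4525 TPM at 24 h glycerol. By the medians both genes were highest at 24 h glycerol, and both reached their lowest levels in methanol in Cluster 2, where the strain means were 17.8 to 61.1 TPM for GQ67_01660 and 110.1 to 182 TPM for GQ67_01659. At 24 h glycerol, Y-11430 stood below the other 10 strains for both genes, with means of 548 and 1049 TPM. The correlation was 0.93 with condition means removed and 0.90 between libraries of a group. Y-48123 methanol replicate C, which enters these values, was low for both genes. It had 42.1 TPM of GQ67_01660, against 243 to 252 TPM in the rest of its group, and 300 TPM of GQ67_01659, against 733 to 793 TPM. No symbol for these genes is given in the sources used here.

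The other pairs at the top behaved alike in part. GQ67_00109 and GQ67_00110 (chromosome 2, minus strand from 154190 to 154773 and plus strand from 155214 to 155354, gap 441 bp) and GQ67_00469 and GQ67_00470 (chromosome 2, minus strand from 787390 to 787788 and plus strand from 788130 to 788808, gap 342 bp) are strongly expressed, and by the medians both genes of each pair were highest at 24 h glycerol. GQ67_00110 had 28.6, 744 and 1145 TPM in methanol, 69.6, 394 and 1210.4 TPM at 48 h glycerol and 500.1, 3225 and 4535 TPM at 24 h glycerol. Its partner GQ67_00109 had 116, 912 and 1207 TPM in methanol, 539, 813 and 2297 TPM at 48 h glycerol and 935, 3771 and 5103 TPM at 24 h glycerol. GQ67_03419 and GQ67_03420 (chromosome 3, minus strand from 716631 to 718160 and plus strand from 718330 to 719417, gap 170 bp) were lowest in methanol instead. GQ67_03419 had 2.31, 16.0 and 35.5 TPM in methanol, against 30.8, 47.8 and 65.8 TPM at 48 h glycerol. GQ67_03420 had 10.5, 36.1 and 72.5 TPM in methanol, against 40.6, 83.5 and 134 TPM at 48 h glycerol. Their log2 fold changes for methanol against 48 h glycerol were -1.75 (SE 0.11, adjusted p = 2.03e-24) and -1.36 (SE 0.09, adjusted p = 5.59e-24) by edgeR, with GQ67_03419 lower in 11 and GQ67_03420 in 10 of 11 strains, and 0.34 and 0.40 for 48 h against 24 h glycerol.

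The 4 lowest correlations were nearly as far from 0. They were -0.94 for GQ67_01116 and GQ67_01117 (chromosome 2, minus strand from 1981455 to 1982015 and plus strand from 1982353 to 1983177, gap 338 bp), -0.93 for GQ67_00220 and GQ67_00221 (chromosome 2, minus strand from 360275 to 362436 and plus strand from 362607 to 364383, gap 171 bp), -0.89 for GQ67_05199 and GQ67_05200 (chromosome 4, minus strand from 1563998 to 1564973 and plus strand from 1565036 to 1566097, gap 63 bp) and -0.88 for GQ67_02284 and GQ67_02285 (chromosome 1, minus strand from 61061 to 62168 and plus strand from 62556 to 64658, gap 388 bp). In each pair, by the medians, a gene that was lowest at 24 h glycerol faced a gene that was highest there. GQ67_01116 had 16.8, 45.0 and 108 TPM in methanol, 18.3, 58.7 and 169.8 TPM at 48 h glycerol and 126, 268 and 399 TPM at 24 h glycerol. GQ67_01117 had 142, 241 and 408 TPM in methanol, 114, 209.9 and 264 TPM at 48 h glycerol and 15.6, 52.7 and 143 TPM at 24 h glycerol. Y-11430 again lay nearest to the other conditions at 24 h glycerol, with means of 137 TPM for GQ67_01116 and 136 TPM for GQ67_01117. With condition means removed the correlation of this pair was -0.49, and between libraries of a group it was -0.20.

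In the GQ67_00220 pair, the strong gene was at 398, 1674 and 6458 TPM in methanol, 210.4, 1181 and 1771 TPM at 48 h glycerol and 59.9, 140.4 and 867 TPM at 24 h glycerol. GQ67_00221 had 3.22, 17.2 and 40.4 TPM in methanol, 8.74, 14.9 and 44.6 TPM at 48 h glycerol and 24.8, 50.9 and 77.8 TPM at 24 h glycerol. GQ67_00220 was highest in the 4 Cluster 2 strains in methanol, where GQ67_00221 was among its lowest. In the GQ67_05199 pair, whose gap of 63 bp is the shortest of the 8, GQ67_05199 had 19.8, 58.3 and 111 TPM in methanol, 33.4, 59.0 and 98.5 TPM at 48 h glycerol and 3.68, 11.1 and 53.0 TPM at 24 h glycerol. GQ67_05200 had 5.88, 96.5 and 461 TPM in methanol, 46.6, 92.3 and 331 TPM at 48 h glycerol and 124, 372 and 818 TPM at 24 h glycerol. Opposite levels were thus also found across a very short gap. The log2 fold changes for 48 h against 24 h glycerol were 2.41 (SE 0.10, adjusted p = 6.56e-36) for GQ67_05199 and -1.90 (SE 0.16, adjusted p = 2.77e-18) for GQ67_05200 by edgeR, with GQ67_05199 higher and GQ67_05200 lower in 11 of 11 strains.

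**Figure D4:**
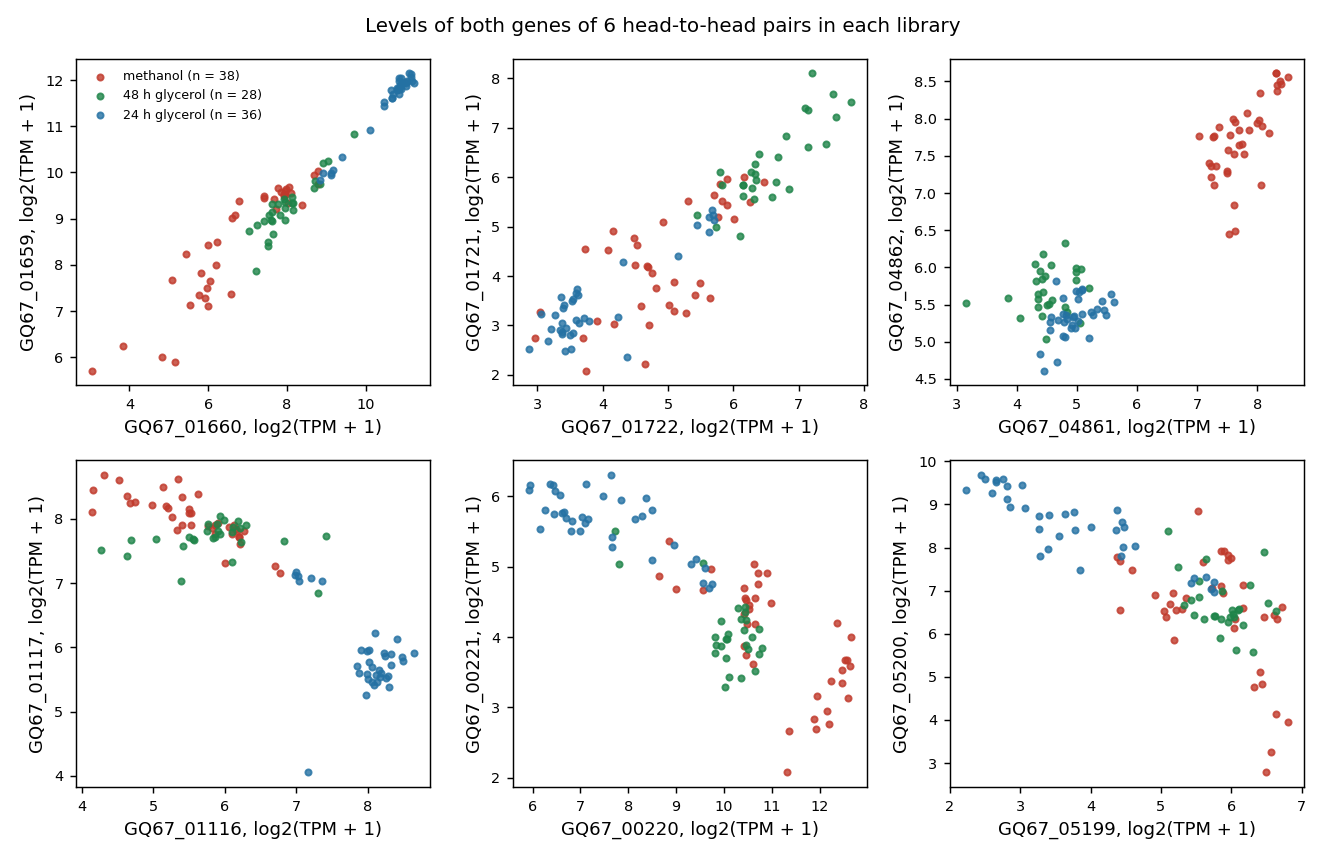
Levels of both genes of 6 head-to-head pairs in each of the 102 libraries, as log2(TPM + 1), with the minus-strand gene on the horizontal and the plus-strand gene on the vertical axis, coloured by condition. The upper row holds pairs with positive correlations, 0.98 for GQ67_01660 and GQ67_01659, and the lower row pairs with negative ones, -0.94 for GQ67_01116 and GQ67_01117.

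The 166 pairs with an r over 0.7 had a median gap of 174 bp and the 67 pairs with an r under -0.5 a median gap of 180 bp, so gap did not set them apart. With condition means removed, the median r was 0.65 in pairs over 0.7, 0.27 in the 844 pairs between these bounds and -0.26 in pairs under -0.5. Between libraries of a group the medians were 0.52, 0.27 and -0.0046 in the same order. An r over 0.9 was reached by 27 of 1077 head-to-head, 4 of 618 tail-to-tail, 45 of 1765 same-strand and 4 of 302 wider head-to-head pairs. The groups were chosen by r over the same libraries, so these medians are descriptive.

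Calls of single genes were set side by side next, to ask how often a change of condition moved both partners. A gene was called at an adjusted p under 0.05 and a fold change of at least 2 in edgeR's quasi-likelihood test over all genes, averaged over 10 strains. For methanol against 48 h glycerol, 26.6% of the 5087 genes tested were called, 14.4% higher and 12.2% lower. The share called was 23.4% of 2138 head-to-head genes, against 27.1% of tail-to-tail, 27.5% of same-strand and 32.9% of wider head-to-head genes, and the difference between classes was not tested. Of the 1077 pairs, 1061 had both genes past the low-count filter. In 36 of these both genes rose, in 19 both fell, in 18 they moved in opposite directions, in 348 a single gene was called and in 640 neither. Pairs with both genes called in the same direction were 5.18% of head-to-head pairs. The shares were 4.05% of tail-to-tail, 6.48% of same-strand and 8.42% of wider head-to-head pairs, so joint moves were not most frequent in head-to-head pairs. Of the 73 head-to-head pairs with both genes called, 75.3% moved in the same direction, against 49.0% of 51 tail-to-tail pairs, 72.0% of 157 same-strand pairs and 73.5% of 34 head-to-head pairs over 500 bp apart. Over all pairs past the filter, called or not, fold changes had the same sign in 55.1% of head-to-head pairs. The shares were 50.4% of tail-to-tail, 57.5% of same-strand and 55.2% of wider head-to-head pairs. None of these shares was tested. The head-to-head pairs called in the same direction moved so in a median of 10.5 of 11 strains for rises and 11 for falls, and 8 of the 18 opposite pairs were opposite in all 11 strains.

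The pairs with the largest joint rise in methanol, ranked by the partner that moved less, were GQ67_04861 with GQ67_04862 (chromosome 4, minus strand from 1006713 to 1008173 and plus strand from 1008414 to 1009146, gap 241 bp), GQ67_04520 with GQ67_04521 (chromosome 4, minus strand from 448847 to 451984 and plus strand from 452439 to 453581, gap 455 bp) and GQ67_01060 with GQ67_01061 (chromosome 2, minus strand from 1879978 to 1880571 and plus strand from 1880857 to 1883392, gap 286 bp). GQ67_04861 had 129, 202 and 363 TPM in methanol, against 7.89, 21.3 and 35.8 TPM at 48 h glycerol. GQ67_04862 had 86.0, 218 and 389 TPM in methanol, against 32.0, 49.3 and 79.3 TPM at 48 h glycerol. The libraries of the 2 conditions did not overlap for either gene, and at 24 h glycerol both were low as well, with medians of 29.8 and 39.9 TPM. The log2 fold changes were 3.59 (SE 0.07, adjusted p = 8.84e-58) and 2.38 (SE 0.08, adjusted p = 3.58e-42), by edgeR, in 11 of 11 strains. GQ67_04520 had 38.5, 77.6 and 153 TPM in methanol, against 10.1, 22.3 and 38.4 TPM at 48 h glycerol. GQ67_04521 had 16.5, 59.8 and 155 TPM in methanol, against 5.48, 12.7 and 26.0 TPM at 48 h glycerol. GQ67_04520 did not overlap between the conditions and GQ67_04521 did, with log2 fold changes of 2.16 and 2.39. Their within-pair r was 0.81 over the means and -0.10 with condition means removed, so they shared the response to methanol and not the differences between strains.

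The third pair shared a rise of like size, 2.14 and 2.37 log2 units, and GQ67_01061 also rose at 48 h against 24 h glycerol, by 2.68, where GQ67_01060 had 0.02. GQ67_01061 had 11.2, 256 and 1069.9 TPM in methanol, against 21.9, 54.4 and 119.8 TPM at 48 h glycerol. The conditions overlapped, and GQ67_01061 was higher in methanol in 9 of 11 strains. The largest joint falls were those of GQ67_01565 with GQ67_01564 (chromosome 1, minus strand from 2483037 to 2484167 and plus strand from 2484335 to 2485861, gap 168 bp), GQ67_01722 with GQ67_01721 (chromosome 1, minus strand from 2209769 to 2211195 and plus strand from 2211369 to 2213071, gap 174 bp) and GQ67_04460 with GQ67_04461 (chromosome 4, minus strand from 328913 to 330472 and plus strand from 330576 to 333578, gap 104 bp). GQ67_01565 had 0, 15.8 and 27.7 TPM in methanol, against 27.7, 40.5 and 81.8 TPM at 48 h glycerol. GQ67_01564 had 1.68, 7.48 and 19.6 TPM in methanol, against 13.1, 26.0 and 37.8 TPM at 48 h glycerol. Both were lower in methanol in 11 of 11 strains, with log2 fold changes of -1.96 (SE 0.12, adjusted p = 2.64e-26) and -1.85 (SE 0.11, adjusted p = 1.15e-26) by edgeR. GQ67_04461 had 3.85, 38.1 and 217 TPM in methanol, against 63.4, 447 and 2072 TPM at 48 h glycerol. It fell by 3.45 on the log2 scale, in 11 of 11 strains, and its partner GQ67_04460, lower in 10 of 11, had -1.98.

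Partners called in opposite directions were led by GQ67_03471 and GQ67_03472 (chromosome 3, minus strand from 800914 to 802932 and plus strand from 803292 to 803675, gap 360 bp). GQ67_03471 had 4.42, 21.9 and 127 TPM in methanol, against 202, 298 and 467 TPM at 48 h glycerol. GQ67_03472 had 0, 4.31 and 40.3 TPM in methanol, against 0, 2.90 and 9.68 TPM at 48 h glycerol. The strong partner fell in all 11 strains without overlap between conditions, and the weak one, which reached 0 TPM in both conditions and was higher in methanol in 7 of 11 strains, rose by 1.47 (SE 0.42, adjusted p = 0.00113) by edgeR. Without X-33 methanol replicate B its log2 fold change was 0.98, under the 2-fold limit. GQ67_03039 and GQ67_03040 (chromosome 3, minus strand from 78050 to 79675 and plus strand from 80004 to 82773, gap 329 bp) had log2 fold changes of -1.85 (SE 0.10, adjusted p = 1.03e-29) and 1.40 (SE 0.10, adjusted p = 5.49e-22) by edgeR. GQ67_03039 had 17.4, 59.6 and 106 TPM in methanol, against 85.5, 239.9 and 306 TPM at 48 h glycerol. GQ67_03040 had 13.9, 29.2 and 66.6 TPM in methanol, against 8.99, 15.0 and 22.9 TPM at 48 h glycerol. Of GQ67_01126 and GQ67_01127 (chromosome 2, minus strand from 1997684 to 1999469 and plus strand from 1999601 to 2000384, gap 132 bp), the weak partner fell and the strong one rose. GQ67_01126 had 13.8, 27.2 and 42.0 TPM in methanol, against 33.8, 74.7 and 105 TPM at 48 h glycerol. GQ67_01127 had 644, 2901 and 14045 TPM in methanol, against 102, 1661 and 4921 TPM at 48 h glycerol. GQ67_01127 rose by 1.95 on the log2 scale, in 10 of 11 strains, and GQ67_01126 fell by 1.28 in all 11.

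**Figure D5:**
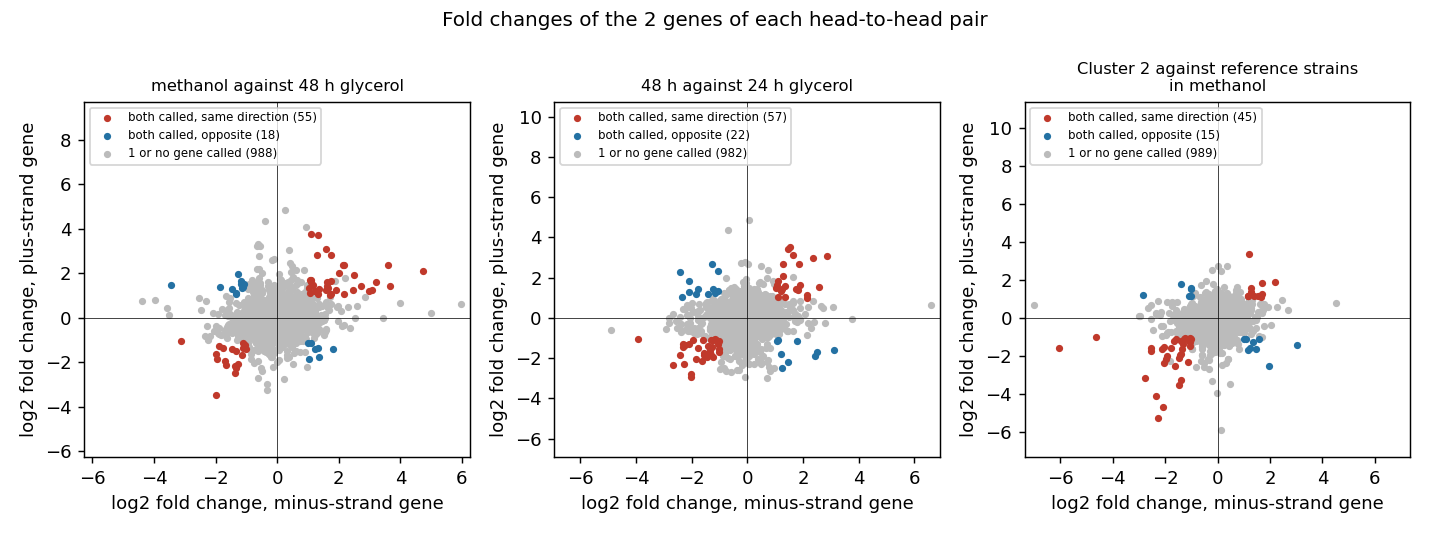
Log2 fold change of the minus-strand gene (horizontal axis) and of the plus-strand gene (vertical axis) of each head-to-head pair past the low-count filter, for methanol against 48 h glycerol, 48 h against 24 h glycerol and Cluster 2 against the reference strains in methanol. Red points are pairs with both genes called in the same direction (55, 57 and 45), blue points pairs called in opposite directions (18, 22 and 15) and grey points the rest.

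For 48 h against 24 h glycerol, 27.8% of the 5087 genes tested were called, 14.0% higher and 13.9% lower at 48 h. Head-to-head genes were called in 24.9% of cases, with 9.78% higher and 15.2% lower, and the difference from all genes was not tested. Both partners rose in 22 of 1061 pairs, both fell in 35, 22 moved in opposite directions, 371 had a single gene called and 611 none. Pairs called in the same direction were 5.37% of head-to-head, 4.21% of tail-to-tail, 5.68% of same-strand and 8.75% of wider head-to-head pairs. Of the 79 head-to-head pairs with both genes called, 72.2% moved in the same direction, against 55.3% of 47 tail-to-tail pairs, 65.1% of 152 same-strand pairs and 66.7% of 39 head-to-head pairs over 500 bp apart. Over all pairs past the filter, fold changes had the same sign in 58.0% of head-to-head, 52.7% of tail-to-tail, 54.0% of same-strand and 54.9% of wider head-to-head pairs. The comparison of 48 h with 24 h glycerol shares its 48 h libraries with the previous one, so the calls of the 2 comparisons are not independent. All 11 strains moved both partners the same way in 14 of the 22 joint rises and 27 of the 35 joint falls, and in 10 of the 22 opposite pairs the partners were opposite in every strain.

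GQ67_01722 and GQ67_01721, named above for their joint fall in methanol, had the largest joint rise. GQ67_01722 had 6.81, 28.3 and 87.7 TPM in methanol, 42.5, 81.5 and 222 TPM at 48 h glycerol and 6.32, 10.7 and 51.3 TPM at 24 h glycerol. GQ67_01721 had 3.26, 17.3 and 63.5 TPM in methanol, 27.3, 66.8 and 274 TPM at 48 h glycerol and 4.17, 8.16 and 39.4 TPM at 24 h glycerol. Both were highest at 48 h glycerol in 11 of 11 strains, with log2 fold changes of 2.86 (SE 0.12, adjusted p = 1.05e-35) and 3.08 (SE 0.17, adjusted p = 2.41e-27) for 48 h against 24 h glycerol and -1.70 and -1.95 for methanol against 48 h glycerol, by edgeR. At 24 h glycerol the upper end of both ranges came from Y-11430, with means of 48.5 and 34.5 TPM. GQ67_03076 and GQ67_03077 (chromosome 3, minus strand from 157123 to 158048 and plus strand from 158285 to 159109, gap 237 bp) rose together at 48 h, by 2.35 and 2.98 log2 units, but parted in methanol. GQ67_03077 had 36.0, 360.2 and 1169 TPM in methanol, 756, 2591 and 5418 TPM at 48 h glycerol and 129, 222 and 1635 TPM at 24 h glycerol. GQ67_03076 had 0, 150.0 and 325 TPM in methanol, 71.1, 163 and 277 TPM at 48 h glycerol and 14.9, 24.5 and 108 TPM at 24 h glycerol. Against 48 h glycerol, GQ67_03077 fell by 2.77 on the log2 scale in methanol, and GQ67_03076 had a log2 fold change of 0.21. The third joint rise was that of GQ67_04949 and GQ67_04950 (chromosome 4, minus strand from 1165028 to 1166498 and plus strand from 1166619 to 1168712, gap 121 bp), with 1.84 and 2.66 log2 units, in 11 of 11 strains.

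The joint falls at 48 h were led by the most correlated pair, GQ67_01660 and GQ67_01659, with log2 fold changes of -2.66 (SE 0.12, adjusted p = 1.89e-32) and -2.36 (SE 0.13, adjusted p = 2.03e-28) by edgeR. GQ67_01503 and GQ67_01502 (chromosome 1, minus strand from 2595786 to 2597121 and plus strand from 2597233 to 2600028, gap 112 bp) and GQ67_03641 and GQ67_03642 (chromosome 3, minus strand from 1092162 to 1093334 and plus strand from 1093599 to 1094684, gap 265 bp) followed. GQ67_01503 had 2.53, 8.48 and 27.5 TPM at 48 h glycerol, against 10.7, 37.7 and 77.5 TPM at 24 h glycerol. GQ67_01502 had 2.88, 12.5 and 41.3 TPM at 48 h glycerol, against 17.3, 57.8 and 98.9 TPM at 24 h glycerol. The ranges overlapped, and both genes fell at 48 h in 11 of 11 strains, with -2.26 and -2.30 on the log2 scale. GQ67_03642 had 43.2, 83.6 and 309 TPM at 48 h glycerol, against 408, 713 and 1848 TPM at 24 h glycerol. This gene did not overlap between the time points, and fell by 2.93 on the log2 scale, while its partner GQ67_03641 fell by 2.04. Opposite calls were led by GQ67_04661 and GQ67_04662 (chromosome 4, minus strand from 688473 to 689840 and plus strand from 690137 to 692841, gap 297 bp), with -2.43 and 2.27 log2 units, and GQ67_04826 and GQ67_04827 (chromosome 4, minus strand from 947053 to 949080 and plus strand from 949486 to 950803, gap 406 bp), with 3.10, and -1.59 for its partner, ahead of GQ67_05199 and GQ67_05200. GQ67_04826 had 0, 0.0686 and 0.669 TPM in methanol, 0.830, 3.24 and 11.4 TPM at 48 h glycerol and 0, 0.308 and 4.01 TPM at 24 h glycerol. It was thus detected at low levels and mainly at 48 h glycerol.

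Partners were last compared between groups of strains in methanol. Of 5045 genes tested, 22.2% differed between the Cluster 2 and the reference strains, 9.18% higher and 13.0% lower in Cluster 2. Head-to-head genes were called in 19.1% of cases. Among 1049 pairs tested, both genes were higher in 12, both lower in 33 and opposite in 15. Pairs called in the same direction were 4.29% of head-to-head, 3.125% of tail-to-tail, 4.94% of same-strand and 5.92% of wider head-to-head pairs. Of the 60 head-to-head pairs with both genes called, 75.0% moved in the same direction, against 54.3% of 35 tail-to-tail pairs, 73.9% of same-strand pairs and 85.0% of 20 head-to-head pairs over 500 bp apart. Over all pairs tested, fold changes had the same sign in 56.8% of head-to-head, 54.1% of tail-to-tail, 57.8% of same-strand and 59.2% of wider head-to-head pairs. The study chose Cluster 2 on these libraries, so these counts are no independent evidence of its difference from the reference strains. Without Y-48123 methanol replicate C the same-direction count was 54 in place of 45, and over all libraries left out in turn it lay between 41 and 54.

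The pairs highest together in Cluster 2 were GQ67_05038 with GQ67_05039 (chromosome 4, minus strand from 1318557 to 1319846 and plus strand from 1320012 to 1320959, gap 166 bp) and GQ67_02661 with GQ67_02662 (chromosome 1, minus strand from 725094 to 726908 and plus strand from 727366 to 728025, gap 458 bp). GQ67_05038 had 243, 361 and 539 TPM in the Cluster 2 libraries, against 20.1, 57.3 and 236 TPM in those of the reference strains. GQ67_05039 had 1201, 1514 and 1746 TPM in the Cluster 2 libraries, against 48.1, 157 and 1085 TPM in those of the reference strains. Neither gene overlapped between the groups, and the log2 fold changes were 2.20 (SE 0.35, adjusted p = 3.54e-06) and 1.90 (SE 0.55, adjusted p = 0.00339) by edgeR. X-33 shared the high level of GQ67_05039 in methanol, with a mean of 1526 TPM, while GS115 and Y-11430 had 48.2 and 62.9 TPM. The pair correlated at 0.88 over the 33 means and 0.80 between libraries of a group. GQ67_02661 had 39.5, 64.1 and 84.8 TPM in the Cluster 2 libraries, against 9.50, 19.3 and 32.0 TPM in those of the reference strains. Its partner GQ67_02662 was higher by 1.85 (SE 0.32, adjusted p = 9.12e-06) log2 units by edgeR, with overlapping libraries.

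The pairs lowest together in Cluster 2 were GQ67_04448 with GQ67_04449 (chromosome 4, minus strand from 306669 to 308107 and plus strand from 308461 to 309938, gap 354 bp) and GQ67_00989 with GQ67_00990 (chromosome 2, minus strand from 1749291 to 1751639 and plus strand from 1751818 to 1753069, gap 179 bp). GQ67_04448 had 6.32, 12.9 and 50.6 TPM in the Cluster 2 libraries, against 12.5, 149.6 and 220.0 TPM in those of the reference strains. GQ67_04449 had 10.1, 48.5 and 104 TPM in the Cluster 2 libraries, against 121, 598 and 683 TPM in those of the reference strains. GQ67_04449 did not overlap between the groups, and the log2 fold changes were -2.75 (SE 0.38, adjusted p = 4.38e-07) and -3.18 (SE 0.36, adjusted p = 1.56e-08) by edgeR. GQ67_00990 had 25.8, 37.6 and 72.5 TPM in the Cluster 2 libraries, against 11.0, 1119 and 1521 TPM in those of the reference strains. GQ67_00989 had 2.52, 5.41 and 14.1 TPM in the Cluster 2 libraries, against 1.28, 46.5 and 59.1 TPM in those of the reference strains. The lowest reference library overlapped Cluster 2 for both genes, and the log2 fold changes were -2.35 (SE 0.43, adjusted p = 2.31e-05) and -4.11 (SE 0.72, adjusted p = 1.25e-05) by edgeR. GQ67_00990 was also 4.34 log2 units higher in methanol than at 48 h glycerol, in 11 of 11 strains, where GQ67_00989 had -0.38. Over the 33 means the r of this pair was 0.01, and with condition means removed it was 0.76, so the partners differed in their response to methanol and were alike across strains.

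Opposite partners in Cluster 2 were led by GQ67_02742 with GQ67_02743 (chromosome 1, minus strand from 862196 to 864232 and plus strand from 864237 to 865328, gap 5 bp) and GQ67_00086 with GQ67_00087 (chromosome 2, minus strand from 113522 to 114430 and plus strand from 114910 to 115230, gap 480 bp). GQ67_00086 had 167, 329 and 431 TPM in the Cluster 2 libraries, against 22.1, 37.3 and 77.9 TPM in those of the reference strains. GQ67_00087 had 29.7, 37.6 and 61.3 TPM in the Cluster 2 libraries, against 29.7, 135 and 175 TPM in those of the reference strains. The log2 fold changes of this pair were 3.01 (SE 0.23, adjusted p = 1.23e-11) and -1.44 (SE 0.29, adjusted p = 6.57e-05) by edgeR, and GQ67_00086 did not overlap between the groups. GQ67_02742 and GQ67_02743 have start codons 5 bp apart, and their log2 fold changes were 1.97 (SE 0.26, adjusted p = 1.61e-07) and -2.54 (SE 0.56, adjusted p = 2.25e-04) by edgeR. GQ67_02743 had 0, 1.73 and 4.30 TPM in the Cluster 2 libraries, against 0, 11.7 and 16.0 TPM in those of the reference strains. It reached 0 in both groups, and GQ67_02742 was the higher partner in Cluster 2 and the lower one in the reference strains by the medians, where it had 15.6 and 5.29 TPM.

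Of the 8 genes to which the study's supplement gives a symbol and which it picked from these libraries, 3 are in a head-to-head pair. PDR12 (GQ67_05224), named after a plasma membrane transporter that exports weak organic acids in S. cerevisiae, faces GQ67_05223 (chromosome 4, minus strand from 1598992 to 1602684 and plus strand from 1602985 to 1607642, gap 301 bp). PDR12 had 89.7, 691 and 2354 TPM in methanol, 2140.5, 7035 and 12642 TPM at 48 h glycerol and 15.5, 332 and 3364 TPM at 24 h glycerol. GQ67_05223 had 17.0, 37.7 and 73.0 TPM in methanol, 38.6, 66.4 and 122 TPM at 48 h glycerol and 48.7, 93.9 and 295 TPM at 24 h glycerol. PDR12 rose by 4.38 (SE 0.16, adjusted p = 2.08e-39) on the log2 scale at 48 h against 24 h glycerol and its change for methanol against 48 h glycerol was -2.73 (SE 0.15, adjusted p = 3.08e-28), by edgeR, in 11 of 11 strains both times. Its partner GQ67_05223 had -0.70 and -0.63 and was called in neither comparison, and the pair's r was -0.19.

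NIT1 (GQ67_00061), named after a nitrilase, an enzyme that acts on carbon-nitrogen bonds, faces GQ67_00060 (chromosome 2, minus strand from 64989 to 65909 and plus strand from 66393 to 67522, gap 484 bp). NIT1 had 5.36, 23.1 and 1458 TPM in methanol, 5.07, 15.9 and 212 TPM at 48 h glycerol and 6.38, 23.7 and 604 TPM at 24 h glycerol. GQ67_00060 had 70.9, 117 and 168 TPM in methanol, 80.0, 134 and 242 TPM at 48 h glycerol and 95.4, 114 and 332 TPM at 24 h glycerol. The high end of NIT1 came from GS115, with means of 1117, 185 and 511 TPM in methanol, at 48 h and at 24 h glycerol, where GQ67_00060 had 122, 91.0 and 127 TPM. The pair's r was -0.13, so the strain difference of NIT1 was not seen in its partner. FRE1 (GQ67_04112), named after a metal reductase of the cell surface in S. cerevisiae, faces GQ67_04111 (chromosome 3, minus strand from 1911622 to 1912656 and plus strand from 1912755 to 1915796, gap 99 bp) with an r of 0.35. FRE1 had 174, 434 and 764 TPM in methanol, 373, 572 and 1061 TPM at 48 h glycerol and 30.2, 831 and 1373 TPM at 24 h glycerol. The low end at 24 h glycerol came from GS115, with a mean of 44.1 TPM. GQ67_04111 overlaps the 3′ end of GQ67_04110 on the other strand, so its reads may include those of that gene.

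The pairs with the strongest weaker partner were GQ67_01552 with GQ67_01551 (chromosome 1, minus strand from 2505300 to 2506299 and plus strand from 2506541 to 2507332, gap 242 bp), GQ67_03479 with GQ67_03480 (chromosome 3, minus strand from 815450 to 816754 and plus strand from 817105 to 817512, gap 351 bp) and GQ67_00109 with GQ67_00110. Their correlations were -0.87, 0.45 and 0.96, so pairs of strong genes had r of either sign. GQ67_01551 had 215, 817 and 1205 TPM in methanol, 298, 654 and 2081 TPM at 48 h glycerol and 792, 4386 and 5490.3 TPM at 24 h glycerol. GQ67_01552 had 783, 1807 and 3496 TPM in methanol, 764, 1303 and 1696 TPM at 48 h glycerol and 463, 629.6 and 1133 TPM at 24 h glycerol. At 48 h against 24 h glycerol, GQ67_01551 fell by 2.48 on the log2 scale, and GQ67_01552 had 0.97, just under the 2-fold limit. GQ67_03480 had 418, 888 and 1403 TPM in methanol, 507, 889 and 1250.2 TPM at 48 h glycerol and 205, 694 and 974 TPM at 24 h glycerol.

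The shortest gaps were 3 bp between GQ67_01446 and GQ67_01445 (chromosome 1, minus strand from 2697583 to 2698071 and plus strand from 2698074 to 2699506), and 5 bp in the GQ67_02742 pair and between GQ67_03617 and GQ67_03618 (chromosome 3, minus strand from 1056717 to 1058498 and plus strand from 1058503 to 1061091), with r of 0.26, 0.02 and 0.75. GQ67_03617 had 48.2, 87.9 and 161 TPM in methanol, 51.8, 90.0 and 185 TPM at 48 h glycerol and 76.3, 137 and 212 TPM at 24 h glycerol. GQ67_03618 had 6.66, 17.3 and 32.0 TPM in methanol, 14.2, 36.0 and 77.5 TPM at 48 h glycerol and 26.7, 42.9 and 84.4 TPM at 24 h glycerol. Start codons lie 5 bp apart in the last 2 pairs and 220 bp apart in the first, whose annotation holds leaders. Just inside the limit lay GQ67_01909 with GQ67_01908 (gap 498 bp, r 0.93) and GQ67_04109 with GQ67_04110 (gap 497 bp, r 0.65). Just outside lay GQ67_03983 with GQ67_03984 (gap 501 bp, r 0.85) and GQ67_01995 with GQ67_01994 (gap 503 bp, r 0.74). Correlated pairs thus lay on both sides of the limit. These are single pairs, and the median r was 0.16 at 401 to 500 bp and 0.27 at 501 to 1000 bp.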

How the data were processed

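RNA-seq libraries were made with a KAPA HyperPrep kit and sequenced on a NextSeq as 40-nt reads, which the labels call paired-end and the alignment methods of the study single-end, so whether a count is a read or a read pair is not settled here. The authors aligned reads to the Y-11430 assembly with STAR 2.5.3a and quantified genes with RSEM 1.3.0, the versions being those of the submitters' processing notes. The deposited tables hold expected counts, all of them whole numbers, and log2(TPM + 1) values that the authors computed with RSEM. Whether counting used the strand is not given in the sources used here. Strains were grouped by the labels. Total counts were 70901 to 16336681 per library. Every value column was assigned to a sample, and 0 columns of other samples were left out.

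Pairs were read from the deposited gene annotation. TPM was recovered from the log2 values and rescaled to a sum of 1000000 over the listed genes, and correlations used log2(TPM + 1) with a pseudocount of 1. Counts were tested with the quasi-likelihood test of edgeR 4.0.16 (R 4.3.3) after filterByExpr and TMM, with 1 term for each strain and condition, and contrasts were averaged over the 10 strains other than Y-48123, whose 48 h glycerol group has 1 library. Genes were called at a Benjamini-Hochberg adjusted p under 0.05 and a fold change of at least 2. On simulated counts for 5087 genes with 200 changed in methanol, 200 were recovered with 0 false calls. No library was a copy of another of its own group: over 124 replicate pairs the lowest chi-square per gene was 1.88. Alternatives were RLE size factors, DESeq2 1.42.0, no filter, other pseudocounts, TMM log2 CPM, Spearman correlation, other gap limits, a replicate block and leaving out each library, the shallow libraries or the 3 strains farthest from the assembly.

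The members and gene lists were chosen with earlier results of these data known. Named pairs had the 4 highest and 4 lowest r, the largest joint and opposite changes in each comparison (joint changes ranked by the smaller fold change, opposite ones by the difference between partners), the 3 strongest weaker partners, the 3 shortest gaps, the 2 pairs on each side of the limit, or a gene with a symbol. None of the gene identifiers matched the 5040 genes of the RefSeq table of strain GS115 (ASM2700v1), so genes are given by identifier, and sequences are not used here.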

Additional observations from a re-analysis of the deposited data

Results flagged for a closer look

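Levels of 22 genes of the named pairs were examined in groups of 4 to 7 libraries. In 11 of the 88 sets of values 1 library stood apart from the rest, where chance gives about 1 in 20. Y-48123 methanol replicate C gave 6 of these. It had 3.26 TPM of GQ67_01721, against 58.5 to 63.5 TPM in the other libraries of its group, and 42.1 TPM of GQ67_01660, against 243 to 252 TPM. It had 300 TPM of GQ67_01659, against 733 to 793 TPM, and 9.11 TPM of GQ67_01503, against 25.4 to 30.6 TPM. It had 49.6 TPM of GQ67_03077, against 904 to 1169 TPM, and 16.5 TPM of GQ67_04521, against 94.1 to 103 TPM. This library had 2731733 counts and correlated with the rest of its group at 0.87 across genes.

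The other 5 were of Y-11430. GQ67_01722 had 42.4 TPM in replicate B at 24 h glycerol, against 48.3 to 51.3 TPM in the others. In methanol, GQ67_01565 had 11.5 TPM in replicate C, against 18.1 to 22.8 TPM, GQ67_03642 had 119 TPM in replicate A, against 60.3 to 81.0 TPM, and GQ67_04460 had 51.1 TPM in replicate G, against 60.8 to 68.3 TPM. GQ67_04521 had 8.86 TPM in replicate C at 24 h glycerol, against 14.5 to 17.8 TPM.

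The response of GQ67_03076 to methanol against 48 h glycerol had opposite signs in the 2 groups of strains, with a mean of 0.485 log2 units in Cluster 2 and strain values between -0.503 and -0.0059 in the reference strains. This difference was not tested.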

How the results depend on the processing

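Head-to-head pairs had the highest median r of the 4 classes under all 11 alternatives run on it. With the deposited TPM the medians of head-to-head, tail-to-tail, same-strand and wider head-to-head pairs were 0.386, 0.185, 0.311 and 0.282. With TMM log2 CPM they were 0.231, 0.020, 0.171 and 0.202. With Spearman correlation the head-to-head median was 0.262 and that of wider head-to-head pairs 0.224. The same-strand median was 0.232 with both genes at a mean of at least 3 and 0.235 without Y-17741, YB-378 and YB-4289. The median of wider head-to-head pairs was 0.265 with a limit of 300 bp and 0.165 with 1000 bp. Leaving out each library gave 0.274 to 0.299, 0.067 to 0.092, 0.209 to 0.228 and 0.207 to 0.228 in the 4 classes. The SE of the median, from a jackknife that left out each strain in turn, was 0.022, 0.027, 0.015 and 0.034 in the same order.

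Without a fold limit, same-direction pairs numbered 413, 433 and 253 in methanol, at 48 h against 24 h glycerol and in Cluster 2, and opposite pairs 298, 282 and 137. With gaps of 1 to 300 bp, methanol had 10 opposite pairs, and the same-direction counts were 36 at 48 h against 24 h glycerol and 29 in Cluster 2. Leaving out each library gave 52 to 59 and 17 to 18 pairs in methanol, 53 to 60 and 21 to 23 in the glycerol comparison, and 41 to 54 and 12 to 18 in Cluster 2. At 1 to 300 bp the co-response difference to wider head-to-head pairs at 48 h against 24 h glycerol was 0.0061 (adjusted p = 0.627, exact sign-flip test). Leaving out each library, co-response differences were 0.214 to 0.224, 0.076 to 0.085 and 0.082 to 0.089 for methanol and 0.157 to 0.162, 0.074 to 0.081 and 0.053 to 0.061 for the glycerol comparison. Over the other alternatives the ranges were wider, at 0.184 to 0.228, 0.040 to 0.097 and 0.045 to 0.131 for methanol and 0.130 to 0.173, 0.063 to 0.097 and 0.0061 to 0.108 for the glycerol comparison, with adjusted p (exact sign-flip test) of 0.0146 or less in the first 5 of these and from 0.00195 to 0.627 in the last. The causes of these shifts were not tested.

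Same-lettered libraries deviated together (correlation over 0.1) in 6 of 24 pairs in methanol and 1 of 24 in the glycerol comparison, so the letters were not taken as a pairing. A fit with the replicate letter as a block gave 56 and 18 pairs in methanol, 59 and 23 in the glycerol comparison and 45 and 15 in Cluster 2. Of the calls of the named genes, that of GQ67_03472 in methanol ended without X-33 methanol replicate B, which held 3432406 counts, and the cause was not tested.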
